A study of Mus musculus with 9 samples.

Results

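The retinoid X receptor genes are Rxra, Rxrb and Rxrg, which encode RXR alpha, RXR beta and RXR gamma. Open chromatin regions were assigned to each gene by position: a region counted where a peak lay within the gene or within 100 kb of its ends. Of the 117465 regions obtained by merging the peaks of all 9 libraries, 89 met this rule, 31 at Rxra, 47 at Rxrb and 11 at Rxrg.

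RXRs are nuclear receptors that bind DNA mostly as one partner of a dimer, with the retinoic acid, liver X, vitamin D, thyroid hormone or PPAR receptors as the other partner. Each partner recognises a short element related to AGGTCA. RXR alpha and RXR beta are broadly expressed, including in blood cells, whereas RXR gamma is best known from muscle and brain. In the mouse, Rxrb lies inside the major histocompatibility complex, next to genes with unrelated functions.

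The series used ATAC-seq, in which the Tn5 transposase cuts and tags accessible DNA, on sorted bone marrow cells of C57BL/6 mice. Long-term haematopoietic stem cells (LT-HSCs), the rare cells that sustain blood formation, were compared with multipotent progenitors (MPPs), their more proliferative descendants. In each cell type, cells described as RXR alpha and RXR beta knockout (KO) were compared with wild-type (WT) cells, and the labels do not name Rxrg as a target. In LT-HSCs there were 3 KO libraries (1, 2 and 4) beside 2 WT libraries (2 and 3). In MPPs there were 2 of each (KO 1 and 2, WT 1 and 2). Lineage-negative cells of pooled animals were enriched before the sort, so a library is not 1 animal. The labels give neither the age of the mice nor the Cre driver, nor which segments of the genes were deleted. A peak at Rxra or Rxrb in a KO library therefore checks no genotype label.

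The deposited list of LT-HSC KO 1 held 22690 peaks, that of KO 2 held 43126 and that of KO 4 held 71586. LT-HSC WT 2 had 50023 peaks and WT 3 had 22878. The MPP lists were longer and more even, with 78189 and 86353 peaks in KO and 85471 and 80451 in WT libraries. A library was said to hold a region where its list had a peak there, and a rank is that of the peak in its own list by the authors' −log10 q, with 1 the strongest. Since short lists hold fewer regions of every kind, presence and list length move together, and raw ranks from lists of different lengths are given only as descriptions. In bulk cells, a region open in fewer cells and a region less open in each cell cannot be told apart.

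The sequences at the gene starts are shown first, because the 3 receptor genes differ there in their letters and in which libraries had a peak. Each line gives the 250 bases before a RefSeq start (GRCm38.p6, the assembly of mm10, plus strand, 5′ to 3′). Capitals mark matches, on either strand, to the GC box GGGCGG, the nuclear receptor half-site AGGTCA, the ETS core CCGGAA or the GATA motif GATAA, none of which overlapped another here. For Rxrb, 1 of its 2 annotated starts is shown.
Rxra upstream start, chr2:27676951-27677200: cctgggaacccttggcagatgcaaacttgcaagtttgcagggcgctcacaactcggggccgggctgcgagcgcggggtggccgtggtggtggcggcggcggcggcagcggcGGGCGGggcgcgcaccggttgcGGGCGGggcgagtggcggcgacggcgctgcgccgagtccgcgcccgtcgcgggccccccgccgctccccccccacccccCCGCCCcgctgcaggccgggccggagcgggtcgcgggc
Rxra downstream start, chr2:27709042-27709291: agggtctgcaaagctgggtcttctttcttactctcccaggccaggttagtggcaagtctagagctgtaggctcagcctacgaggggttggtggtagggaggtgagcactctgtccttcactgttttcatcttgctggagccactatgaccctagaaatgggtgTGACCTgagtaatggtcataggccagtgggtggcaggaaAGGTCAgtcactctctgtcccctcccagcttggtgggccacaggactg
Rxrb upstream start, chr17:34031562-34031811: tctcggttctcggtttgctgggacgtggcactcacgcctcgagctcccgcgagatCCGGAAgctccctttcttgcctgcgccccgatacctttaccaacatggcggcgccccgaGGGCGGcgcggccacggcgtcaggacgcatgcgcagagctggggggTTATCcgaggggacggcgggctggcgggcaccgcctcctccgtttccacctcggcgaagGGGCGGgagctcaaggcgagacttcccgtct
Rxrg upstream start, chr1:167598112-167598361: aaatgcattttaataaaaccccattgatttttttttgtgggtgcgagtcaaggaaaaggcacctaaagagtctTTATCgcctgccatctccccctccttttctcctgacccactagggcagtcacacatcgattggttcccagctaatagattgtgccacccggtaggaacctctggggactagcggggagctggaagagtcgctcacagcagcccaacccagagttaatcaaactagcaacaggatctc
Rxrg downstream start, chr1:167618015-167618264: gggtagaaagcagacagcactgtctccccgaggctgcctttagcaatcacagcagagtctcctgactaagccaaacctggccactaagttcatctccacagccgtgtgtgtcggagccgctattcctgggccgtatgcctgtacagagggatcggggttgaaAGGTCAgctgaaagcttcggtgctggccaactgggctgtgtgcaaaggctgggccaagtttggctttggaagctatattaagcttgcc
The upstream Rxra start had 40 CpG dinucleotides and 81.2% G and C, and the Rxrb start 31 and 69.2%, against medians of 6 CpG and 52.4% over all 32851 RefSeq promoters of this length. The upstream Rxrg start, with 6 CpG and 49.2% G and C, was at the median for CpG and below it for G and C. The upstream Rxra sequence held 3 GC boxes and the Rxrb sequence 2, a motif present in 32.7% of promoters. AGGTCA was absent from the 3 upstream starts and matched 2 times before the downstream Rxra start and 1 time before the downstream Rxrg start, and 14.0% of promoters hold it. No library had a peak over either downstream start. The Rxrb sequence also held 1 CCGGAA (12.0% of promoters) and 1 GATAA on the minus strand (22.6%), and the upstream Rxrg sequence 1 GATAA on the minus strand. The E-box CACGTG (in 6.02% of promoters), the AP-1 element TGANTCA (6.75%) and the TATA box TATAAA (12.4%) were searched too and are in none of the 5 windows. A match is a string of letters and not a measured binding site.

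**Figure D1:**
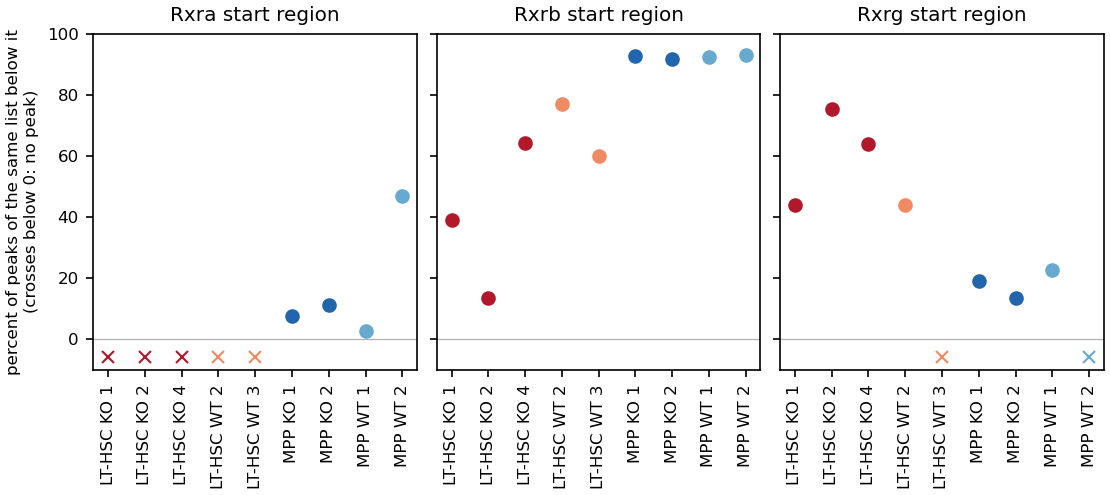
Position of the peak at each gene start in the list of its own library, as the percent of peaks of that list that lie below it (y axis, 100 is the strongest), for each library (x axis; red shades are LT-HSC KO and WT, blue shades MPP KO and WT). Crosses below 0 mark libraries without a peak: all 5 LT-HSC libraries at Rxra, and LT-HSC WT 3 and MPP WT 2 at Rxrg.

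At the upstream Rxra start, no LT-HSC library had a peak and all 4 MPP libraries did. The region (mm10 chromosome 2, 27676738 to 27677529) covered the whole 250 bases printed above, and its midpoint lay 0.69 kb past the annotated start of the gene, which spans 27676445 to 27763319 on the plus strand. Its authors' fold enrichment over background was 4.96 (KO 1) and 5.07 (KO 2) in MPP KO libraries, and 4.48 (WT 1) and 8.61 (WT 2) in MPP WT libraries. These were weak peaks, at rank 72187.5 and 76699.5 in the KO lists and 83262 and 42830 in the WT lists, so MPP WT 2 stood apart. The difference in presence passed Fisher's exact test (two-sided p = 0.00794, 0 of 5 against 4 of 4 libraries; Benjamini-Hochberg adjusted p = 0.0245 over 52020 regions). When only peaks with −log10 q of at least 5 were kept, the call was lost, since the MPP WT 1 peak had 4.93. A second region, 27676095 to 27676583, which spans the first base of the annotated gene but not these 250 bases, was held by LT-HSC KO 4 alone, at rank 34565.5. Of the 421 RefSeq promoters with at least 40 CpG, 35.9% were held by all 9 libraries, 7.36% by none, and 4.99% by all 4 MPP and no LT-HSC library, as the Rxra start was. Here a promoter counted as held where a library held a merged region overlapping its 250 bases. The library's own peak need not reach those bases, so the share held by all 9 may be too high.

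At the Rxrb start every library had a peak, and it ranked lower in LT-HSCs. The merged region (chromosome 17, 34031478 to 34032428) spanned both annotated Rxrb starts and also the start of Slc39a7, a zinc transporter gene read from the opposite strand. Its signal cannot be assigned to 1 of these genes. Of the single peaks in it, only that of MPP WT 2 reached the second Rxrb start, at 34032350. The LT-HSC KO 1 peak ended at 34031798, before the upstream start at 34031812. The peak ranked 13824 in LT-HSC KO 1, 37287 in KO 2 and 25707 in KO 4, against 11464 in LT-HSC WT 2 and 9142 in WT 3. In MPP libraries it ranked 5695 and 7067 in KO and 6639 and 5637 in WT. The fold enrichment was 5.62, 4.35 and 5.62 in LT-HSC KO libraries, with 7.37 and 6.02 in the LT-HSC WT ones, against 11.2 and 11.0 for MPP KO and 10.6 and 10.9 for MPP WT. No fold enrichment in an LT-HSC library reached the lowest one in MPPs. The same was so at H2-K1 (at most 18.9 against at least 21.8) and in H2-DMa (26.3 against 29.3). It was also so 53.0 kb before Rxrb (12.2 against 15.6) and at Rps18 and Vps52 (12.4 against 15.4). It was not so at Pfdn6 and Wdr46, 50.5 kb before Rxrb or 70.0 kb past the Rxrb start. The share of all regions separated in this way by fold enrichment was not counted. Ranked by fold enrichment among shared regions, the Rxrb start did not pass by cell type (difference −0.42, limma adjusted p = 0.358). The summit, the highest point of the peak, lay 192, 140, 43 and 11 bp before the upstream RefSeq start in LT-HSC KO 1, KO 4, WT 3 and WT 2 and 19 bp past it in KO 2. In MPP libraries it lay 89 bp before this start in KO 1 and 90 bp before it in the other 3, where the GATAA match of the sequence above begins.

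The start of Rxrg was held by libraries of both cell types, 7 of 9 in all. The region (chromosome 1, 167598256 to 167598699) was held by all 3 LT-HSC KO libraries and by LT-HSC WT 2 but not WT 3, and by both MPP KO libraries and MPP WT 1 but not WT 2. It ranked 12721, 10573.5 and 25838 in the LT-HSC KO lists and 28025 in the LT-HSC WT 2 list. The ranks were 63270.5 and 74588.5 in the MPP KO lists and 66185.5 in the MPP WT 1 list. Fold enrichment was 6.49, 11.5 and 11.5 in LT-HSC KO 1, 2 and 4 and 7.50 in LT-HSC WT 2, against 6.14 and 5.64 in MPP KO 1 and 2 and 6.71 in MPP WT 1. With all libraries kept, the rank of this region entered no test, because it was not held by every library of either cell type. It was held by 4 of 5 LT-HSC and 3 of 4 MPP libraries, and by 5 of 5 KO and 2 of 4 WT libraries. For a region held by these numbers the exact test of genotype, stratified by cell type, cannot go below p = 0.2.

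At the far ends of the genes the peaks were weak and not shared by a whole cell type. The region 0.61 kb before the end of Rxra (27762573 to 27762849) was held by no LT-HSC library and by MPP KO 1, WT 1 and WT 2, at ranks 48450, 67512.5 and 69371.5 (Fisher's exact adjusted p = 0.0786). The region 0.87 kb beyond the end of Rxrb, which is also near an end of Col11a2 (34039028 to 34039520), was held by LT-HSC KO 4 and WT 2, at ranks 65980 and 49508.5. It was also held by MPP KO 1, KO 2 and WT 2, at ranks 77918, 83906 and 73857.5 (Fisher's exact adjusted p = 0.561). Rxrg had no region within 1 kb of its far end.

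Presence differed by cell type in 1 direction only among the regions that passed. Of the 89 regions, 41 were held by a number of libraries that allows p under 0.05, and 6 of these passed after adjustment, all held by the 4 MPP and no LT-HSC libraries. Over all 52020 regions tested, 31.9% passed in this direction, so 6 of 41 is below the background. None of the 41 passed in the other direction, where 0.442% of all regions did. At unadjusted p under 0.05 in Fisher's exact test, 0 were held more by LT-HSCs and 24 by MPPs, where 2.26% and 58.3% of all regions were. The 6 were the Rxra start, a region inside Rxra (27716436 to 27716763, 40.2 kb past the gene start) and 4 in the Rxrb window. The one with the best ranks of those 4 lay 4.44 kb before Rxrb inside H2-Ke6, a steroid dehydrogenase gene (34027216 to 34027533), with MPP ranks of 27136 and 27033 in KO and 23727 and 26207 in WT. The next lay 40.5 kb past the Rxrb start (34072143 to 34072462), at 31374 and 37268 in KO and 32501 and 27526 in WT lists. The third lay 43.7 kb past it (34075340 to 34075589), with ranks 53242 and 48044 in KO and 54852.5 and 66661 in WT lists. The last, 97.6 kb past the Rxrb start inside H2-DMa, a gene of antigen loading (34129180 to 34129554), ranked between 59729 and 75328. No Rxrg region was called. Without LT-HSC KO 4, the longest LT-HSC list, 0 of 20 tested regions passed for LT-HSCs, where 0.893% of all did, and 17 for MPPs, where 89.5% did. In lists of equal length, each with its 22690 strongest peaks, 9 regions were tested. Of these 1 passed for LT-HSCs (10.9% of all did), the region beyond Rxrg described with the ranks, and 1 for MPPs (21.1% of all did), 15.9 kb past the Rxrb start inside Col11a2 (34047433 to 34047974), a collagen gene.

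**Figure D2:**
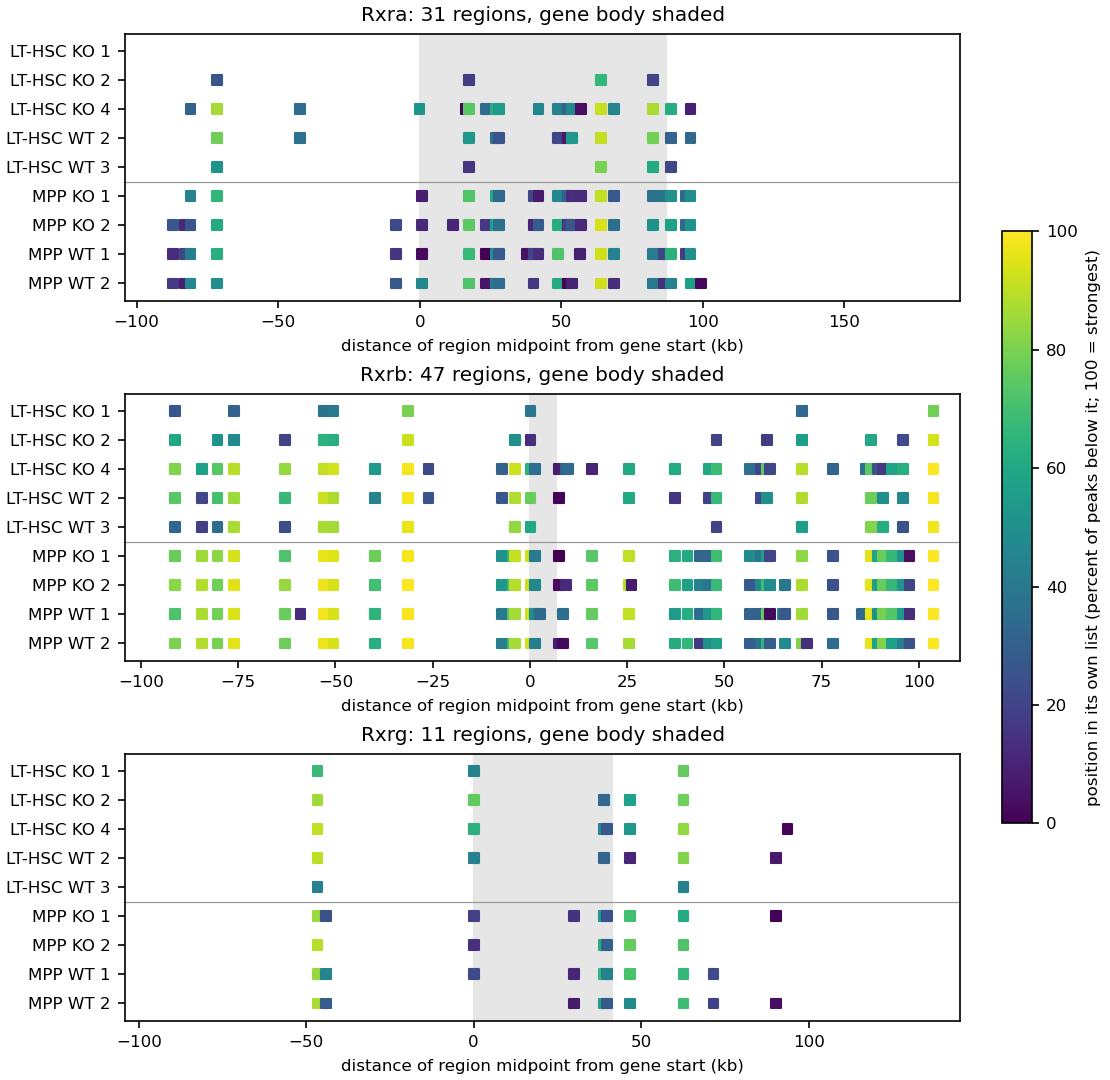
Every region of the 3 genes (squares) by distance of its midpoint from the gene start (x axis, kb) and by library (y axis), coloured by the percent of peaks of the same list that lie below it. The gene body is shaded and a line divides LT-HSC from MPP libraries. LT-HSC KO 1 has no square at Rxra, and the MPP rows are filled more evenly than the LT-HSC rows.

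The number of regions held varied more among LT-HSC than among MPP libraries. For Rxra, 0, 4 and 19 of 31 regions were held by LT-HSC KO 1, 2 and 4, and 12 and 5 by LT-HSC WT 2 and 3, against 19 and 24 by MPP KO and 22 and 21 by MPP WT libraries. No Rxra region was held by all 9 libraries, since LT-HSC KO 1 held none. Rxra has no other protein-coding gene within 100 kb, and 21 of its 31 regions lay inside the gene. For Rxrb, 8, 15 and 35 of 47 regions were held by LT-HSC KO 1, 2 and 4 and 25 and 16 by LT-HSC WT 2 and 3, against 35 and 38 by MPP KO and 40 and 38 by MPP WT libraries. Only 3 of these 47 lay inside Rxrb, and the window contains 14 other protein-coding genes, among them Ring1 of the Polycomb complex, Brd2, a bromodomain gene, and the histocompatibility genes H2-K1, H2-Oa and H2-DMa. For Rxrg, 3, 5 and 7 of 11 regions were held by LT-HSC KO 1, 2 and 4 and 6 and 2 by LT-HSC WT 2 and 3, against 9 and 6 by MPP KO and 9 and 9 by MPP WT libraries. Its window also contains part of Lmx1a, a homeobox gene.

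To compare the genes at equal list length, strong peaks were counted, the 22690 highest by −log10 q of each list, which is the length of the shortest. None of the 3 genes passed this test between cell types. Rxra had 0, 1 and 4 strong peaks in LT-HSC KO 1, 2 and 4, with 3 and 5 in the LT-HSC WT libraries, against 2 and 2 for MPP KO and 1 and 2 for MPP WT. The LT-HSC mean was 2.6 ± 2.07 (SD, n = 5) and the MPP mean 1.75 ± 0.50 (SD, n = 4), with p = 0.540 (two-sided exact permutation; adjusted p = 0.770 over 18599 genes). Rxrb had 8, 9 and 13 in LT-HSC KO libraries, with 14 and 16 in the LT-HSC WT ones, against 17 and 16 for MPP KO and 16 and 16 for MPP WT. The LT-HSC mean was 12.0 ± 3.39 (SD, n = 5) and the MPP mean 16.25 ± 0.50 (SD, n = 4), with an exact permutation p of 0.0714 (adjusted p = 0.273). Rxrg had 3, 4 and 2 in LT-HSC KO libraries, with 2 and 2 in the LT-HSC WT ones, against 1 and 2 for MPP KO and 1 and 1 for MPP WT. The LT-HSC mean was 2.6 ± 0.894 (SD, n = 5) and the MPP mean 1.25 ± 0.50 (SD, n = 4; exact permutation p = 0.0794, adjusted p = 0.279). Over all genes 0 passed after adjustment. At unadjusted p under 0.05, 9.55% of genes had more strong peaks in LT-HSCs and 14.9% more in MPPs, and none of the 3 receptor genes did. Rxrb was under 0.05 with a 10 kb flank (difference −1.6, exact permutation p = 0.00794, adjusted p = 0.103), but Rxra and Rxrg were not (p = 0.802 and 0.722). Without LT-HSC WT 3, Rxrb was under 0.05 too (−5.25, exact permutation p = 0.0286, adjusted p = 0.151). The shares of all genes at unadjusted p were not counted in these settings. Ranked by fold enrichment, the difference changed sign for Rxrb (0.95) and Rxrg (−0.45). None of the 3 genes passed between KO and WT either (exact permutation p = 0.40 for Rxra, 0.25 for Rxrb and 0.20 for Rxrg, adjusted p = 0.766 each), where 0 genes passed after adjustment and 0.344% and 1.38% of all genes had more in KO and in WT at unadjusted p.

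**Figure D3:**
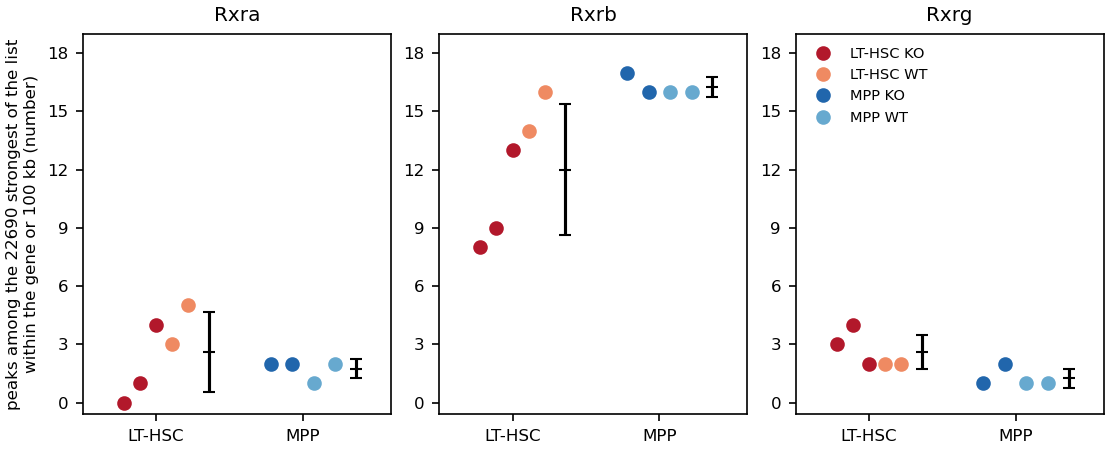
Number of peaks among the 22690 strongest of each list within the gene or 100 kb of its ends (y axis), with 1 point per library, LT-HSC left of MPP, and the mean ± SD in black. Rxrb ranges from 8 to 16 in LT-HSC and from 16 to 17 in MPP libraries.

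Ranks were compared only among regions that every compared library holds. Each library's −log10 q was ranked over those regions and given as a percentile, with 100 the strongest. The ranks were converted to normal scores, a scale on which 1 is about 1 SD of all shared regions, and tested with limma and Benjamini-Hochberg adjustment over all shared regions. Of the 13908 regions held by all 9 libraries, 10 belonged to the receptor genes, 8 at Rxrb and 2 at Rxrg. Among them 1 ranked higher in LT-HSCs (14.6% of all 13908 did) and 2 ranked higher in MPPs (14.2% of all did). The percentiles of the cell types did not overlap in 1 region higher and 2 lower in LT-HSCs, where 15% and 16.1% of all were so separated.

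The region ranking higher in LT-HSCs lay 21.4 kb beyond the end of Rxrg (chromosome 1, 167660689 to 167661417), outside any protein-coding gene. Its percentile was 65.3, 43.2 and 32.8 in LT-HSC KO 1, 2 and 4 and 40.2 and 24.7 in LT-HSC WT 2 and 3, against 7.67 and 12.5 in MPP KO and 12.5 and 14.9 in MPP WT libraries. All 5 LT-HSC values exceeded all 4 MPP values, and the difference was 0.95 ± 0.23 normal scores (SE; limma adjusted p = 0.0114). The authors' fold enrichment there did not separate the cell types, with 9.38, 11.5 and 16.6 in LT-HSC KO libraries and 13.5 and 6.63 in the LT-HSC WT ones, against 13.7 and 17.9 for MPP KO and 16.6 and 17.1 for MPP WT. This region is also the one called for LT-HSCs by presence among the 22690 strongest peaks (Fisher's exact adjusted p = 0.0248). That call cuts the same −log10 q ranks, so it is not separate from the rank test. The MPP peaks ranked 24196 to 30264.5, past the cut. The other Rxrg region held by all libraries, 46.6 kb before the gene (167551457 to 167552061), had percentiles of 54.2, 60.4 and 57.5 in LT-HSC KO, 64.9 and 25.6 in LT-HSC WT, 35.6 and 44.4 in MPP KO, and 33.3 and 43.0 in MPP WT libraries. LT-HSC WT 3 lay below every MPP library, and the difference was 0.32 ± 0.22 (SE; limma adjusted p = 0.310).

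The Rxrb start was 1 of the 2 regions ranking higher in MPPs. Its percentile among shared regions was 25.1, 0.723 and 5.32 in LT-HSC KO 1, 2 and 4 and 30.8 and 41.1 in LT-HSC WT 2 and 3, against 62.3 and 55.0 in MPP KO and 57.9 and 63.1 in MPP WT libraries. The groups did not overlap, and the difference was −1.27 ± 0.35 normal scores (SE; limma adjusted p = 0.0218). The other region lay 53.0 kb before Rxrb (chromosome 17, 33978572 to 33979149) and outside any protein-coding gene, with percentiles of 24.1, 21.6 and 54.7 in LT-HSC KO and 71.8 and 78.8 in LT-HSC WT libraries. In MPPs it stood at 82.6 and 82.8 in KO and 89.0 and 86.0 in WT libraries (difference −0.98 ± 0.26, SE; limma adjusted p = 0.0173). No LT-HSC value reached an MPP value there.

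All 3 calls depended on the measure, the test and MPP KO 1. When regions were ranked by fold enrichment, 0 of the 10 passed either way, where 16% and 15% of all did, with differences of 0.33 (adjusted p = 0.315), −0.42 (0.358) and −0.03 (0.941) for the Rxrg region, the Rxrb start and the region 53.0 kb before Rxrb. Without MPP KO 1 the limma adjusted p was 0.0620, 0.0935 and 0.0793, and without MPP KO 2 it was 0.0471, 0.0827 and 0.0794. In an exact permutation test of the percentiles the adjusted p was 0.0653, 0.0653 and 0.110, and 0 of all 13908 regions passed.

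The other 6 regions held by all 9 libraries were at Rxrb and did not pass the limma test by cell type. The strongest lay inside H2-DMa near the edge of the window (34135223 to 34135907), with percentiles of 68.3, 81.2 and 97.6 in LT-HSC KO, 95.5 and 96.9 in LT-HSC WT, 97.1 and 98.6 in MPP KO, and 95.6 and 95.8 in MPP WT libraries (adjusted p = 0.270). At an end of H2-K1, a class I histocompatibility gene (34000108 to 34000672), the values were 69.7, 76.2 and 91.6 in LT-HSC KO, 94.6 and 94.7 in LT-HSC WT, 92.4 and 95.2 in MPP KO, and 90.5 and 92.7 in MPP WT libraries (adjusted p = 0.445). In both, LT-HSC KO 1 and KO 2 stood below every other library. Over the adjoining ends of Rps18, a ribosomal protein gene, and Vps52, a vesicle transport gene (33955517 to 33955996), the values were 19.2, 8.61 and 51.3 in LT-HSC KO, 50.2 and 78.8 in LT-HSC WT, 66.9 and 70.5 in MPP KO, and 68.5 and 75.7 in MPP WT libraries (adjusted p = 0.104). The remaining 3, at Pfdn6 and Wdr46 (33940189 to 33940843), 50.5 kb before Rxrb (33981072 to 33981593) and 70.0 kb past its start (34101521 to 34102167), had limma adjusted p of 0.699, 0.288 and 0.914.

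**Figure D4:**
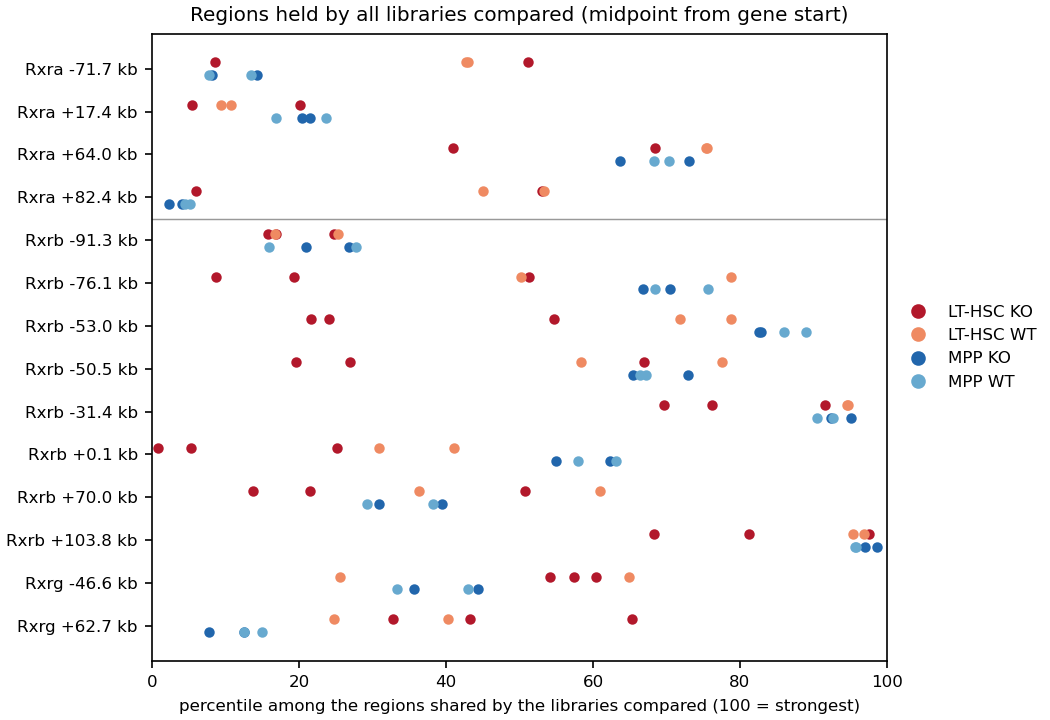
Percentile of each shared region in each library (x axis, 100 is the strongest) by gene and distance of the midpoint from the gene start (y axis). The upper 4 rows, at Rxra, are ranked over the 18558 regions shared by the 8 libraries other than LT-HSC KO 1, and the lower 10 rows over the 13908 regions shared by all 9. The LT-HSC points (red shades) lie right of the MPP points (blue shades) at Rxra +82.4 kb and Rxrg +62.7 kb and left of them at Rxrb +0.1 kb and −53.0 kb.

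By cell type, Rxra could be ranked only without LT-HSC KO 1, over the 18558 regions held by the other 8 libraries, which include 4 Rxra regions. Of these, 1 ranked higher in LT-HSCs, where 16% of the 18558 regions did, and none ranked higher in MPPs, where 15.9% did. It lay inside the gene, 82.4 kb past its start and 4.5 kb before its far end (chromosome 2, 27758379 to 27759270). The percentile was 5.94 and 53.1 in LT-HSC KO 2 and 4 and 45.1 and 53.3 in LT-HSC WT 2 and 3, against 2.21 and 4.03 in MPP KO and 4.46 and 5.17 in MPP WT libraries. All 4 LT-HSC values were above the MPP values, LT-HSC KO 2 by less than 1 percentile. The share of the 18558 regions in which the cell types do not overlap was not counted. The difference was 1.39 ± 0.32 normal scores (SE; limma adjusted p = 0.00936). Ranked by fold enrichment it was 1.12 (adjusted p = 0.00901). Leaving out LT-HSC WT 3 as well gave 1.18 (adjusted p = 0.0555), and leaving out any other single library kept the adjusted p between 0.000112 and 0.0366.

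The peaks inside that Rxra region were not the same in all libraries. Each MPP library listed 2 separate peaks, the first between 27758405 and 27758830 and the second between 27758844 and 27759270. LT-HSC KO 2, WT 2 and WT 3 each listed 1 peak over the first stretch, and LT-HSC KO 4 listed 1 peak from 27758379 to 27759146 that spanned both. The lists of LT-HSC KO 2, WT 2 and WT 3 hold 43126, 50023 and 22878 peaks. That of LT-HSC KO 4 holds 71586, and the shortest MPP list 78189. The part of list length in this was not tested. In MPP WT 1 the second peak was the stronger and set the rank. The −log10 q at the stronger peak was 5.43 and 80.6 in LT-HSC KO 2 and 4, 35.7 and 21.7 in LT-HSC WT 2 and 3, 13.4 and 21.7 in MPP KO, and 17.6 and 16.5 in MPP WT libraries. Without LT-HSC KO 4 the second stretch became a region of its own, held by all 4 MPP and no LT-HSC libraries.

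The strongest Rxra region lay 64.0 kb past the start, inside the gene (27740076 to 27740713), and did not pass by cell type. Its percentile was 41.0 and 68.4 in LT-HSC KO 2 and 4, 75.4 and 75.6 in LT-HSC WT, 63.7 and 73.1 in MPP KO, and 68.4 and 70.3 in MPP WT libraries (difference −0.09 ± 0.21, SE; limma adjusted p = 0.780). Its rank in the full lists was 14324 and 6000 in LT-HSC KO 2 and 4, 4605 and 4568 in LT-HSC WT, 7082.5 and 5117 in MPP KO, and 6195 and 5746 in MPP WT libraries. A region 71.7 kb before the gene (27604536 to 27604963) had percentiles of 8.51 and 51.1 in LT-HSC KO, 42.9 and 42.7 in LT-HSC WT, 14.2 and 8.10 in MPP KO, and 13.4 and 7.66 in MPP WT libraries. LT-HSC KO 2 stood among the MPP values there, and the limma adjusted p was 0.0549 for a difference of 0.82 ± 0.29 (SE). The difference was 1.19 when LT-HSC KO 2 was left out as well, and 0.60 to 0.94 when any other single library was. At the fourth, 17.4 kb past the start (27693668 to 27694093), the percentiles were 5.35 and 20.1 in LT-HSC KO libraries and 9.31 and 10.7 in the LT-HSC WT ones, against 21.5 and 20.4 for MPP KO and 16.9 and 23.7 for MPP WT (difference −0.43 ± 0.20, SE; limma adjusted p = 0.120). By fold enrichment, the same region ranked higher in MPPs (−0.72 ± 0.23, SE; limma adjusted p = 0.0317).

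Over the same 8 libraries, the 3 regions of Rxrb and Rxrg called with all 9 passed as well, and 1 more Rxrb region ranked higher in MPPs. It overlapped both Brd2, including a RefSeq start of that gene, and an end of H2-DMa (chromosome 17, 34119048 to 34119935), with percentiles of 33.3 and 22.3 in LT-HSC KO 2 and 4 and 42.6 and 77.4 in LT-HSC WT 2 and 3, against 80.1 and 79.7 for MPP KO and 83.6 and 84.5 for MPP WT. The cell types did not overlap (difference −1.08 ± 0.25, SE; limma adjusted p = 0.00950). None of these 4 passed when the 8 libraries were ranked by fold enrichment, with limma adjusted p of 0.300 for the Rxrg region, 0.135 for the Rxrb start, 0.781 for the region 53.0 kb before Rxrb and 0.973 for the one at Brd2. In that ranking 3 of the 20 regions ranked higher in LT-HSCs, where 17.2% of all did, and 1 in MPPs, where 16.4% did. These were the 2 Rxra regions given above and 2 Rxrb regions that did not pass by −log10 q (34027670 to 34028297, 0.89 ± 0.29, adjusted p = 0.0304; 34127503 to 34127822, 0.63 ± 0.21, adjusted p = 0.0370).

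KO and WT libraries were compared next, since Rxra and Rxrb are the genes the labels name as deleted. None of the 89 regions was held by a number of libraries for which the stratified test of presence can reach p under 0.05, so 0 were tested by presence. Over all 1565 testable regions 0% passed after adjustment, and 2.36% and 0.128% were held more by KO and by WT at unadjusted p. Among the 10 regions held by all 9 libraries, limma called 0 for genotype and 0 for the interaction with cell type, as over all 13908 regions (0% each way). For the interaction 0 of the 10 had unadjusted p under 0.05. Of all regions, KO minus WT was higher in LT-HSCs than in MPPs in 5.1% and lower in 3.04% at that p. At unadjusted p under 0.05, 1 of the 10 was lower in KO, where 4.35% of all regions were, and 0 were higher, where 5.12% were. That 1 was the region 53.0 kb before Rxrb (difference −0.72 ± 0.26, SE; limma adjusted p = 0.507).

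Within MPPs, 52 of the 89 regions were held by all 4 libraries, 13 at Rxra, 34 at Rxrb and 5 at Rxrg, and none passed between genotypes in limma. At unadjusted p under 0.05, 1 was higher and 1 lower in KO, where 6.82% and 6.77% of all 64003 regions were. The KO and WT values did not overlap in 11 regions higher and 8 lower in KO, where 23.9% and 23.2% of all regions were so separated. At the Rxrb start the percentiles among these regions were 91.1 and 89.0 in KO and 89.6 and 91.2 in WT libraries, and the groups interleaved (difference −0.02 ± 0.12, SE; limma adjusted p = 0.956). The Rxra start stood at 3.07 and 2.73 in KO and at 0.582 and 34.1 in WT libraries. MPP WT 2 stood apart from the other 3, and the difference was −0.43 ± 0.75 (SE; limma adjusted p = 0.845). The largest difference towards WT was 45.9 kb past the Rxrb start (34077583 to 34077926), with 20.6 and 21.3 in KO and 38.2 and 38.3 in WT libraries (−0.51 ± 0.10, SE; limma adjusted p = 0.260). The largest towards KO was inside H2-Oa, a class II histocompatibility gene (34093460 to 34093757), with 10.4 and 31.2 in KO and 0.555 and 15.3 in WT libraries (0.91 ± 0.61, SE; adjusted p = 0.583). The next was the region 43.7 kb past the Rxrb start that no LT-HSC library held, with 20.3 and 26.9 in KO and 18.7 and 7.12 in WT libraries (0.45 ± 0.24, SE; adjusted p = 0.502).

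**Figure D5:**
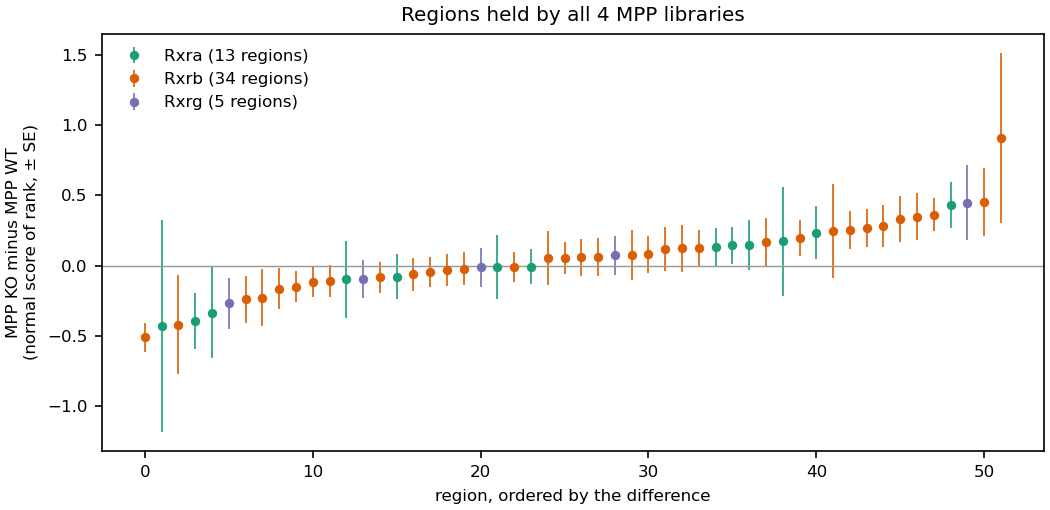
Difference in rank between MPP KO and MPP WT libraries (y axis, normal scores ± SE; positive is higher in KO) for the 52 regions held by all 4 MPP libraries, ordered by the difference (x axis) and coloured by gene. The values run from −0.51 to 0.91, 28 are above 0, and none passed after adjustment.

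Within LT-HSCs, 10 regions were held by all 5 libraries, 8 at Rxrb and 2 at Rxrg, and none passed between genotypes in limma. At unadjusted p under 0.05, 3 were lower in KO, where 4.81% of all 14498 regions were, and 0 were higher, where 7.7% were. In 3 regions every KO value lay below both WT values, where 15.6% of all regions were so, and in none above them, where 16.5% were. The Rxrb start met both criteria, with percentiles of 25.5, 0.735 and 5.51 in KO 1, 2 and 4 and 32.1 and 42.9 in WT 2 and 3 (difference −1.24 ± 0.51, SE; limma adjusted p = 0.384). Likewise, the region 53.0 kb before Rxrb stood at 24.5, 21.7 and 55.6 in KO and at 72.9 and 79.7 in WT libraries (−1.16 ± 0.40, SE; limma adjusted p = 0.373). The region at H2-K1 met the second, with 70.1, 76.6 and 92.0 in KO and 94.9 and 94.9 in WT libraries (limma adjusted p = 0.432). The region at Rps18 and Vps52 met the first, and its values were 19.5, 8.66 and 52.2 in KO and 51.7 and 79.6 in WT libraries, which overlapped (limma adjusted p = 0.384).

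Leaving out LT-HSC KO 4, which lay nearest to WT in several of these regions, changed the count within LT-HSCs. Then 5 of the 10 regions were lower in KO after adjustment, where 9.3% of all 14500 regions were, and 0 were higher, where 11.7% were. They were the regions at H2-K1, at Rps18 and Vps52, in H2-DMa and 53.0 and 50.5 kb before Rxrb, with limma adjusted p between 0.0208 and 0.0413. The Rxrb start was not among them (limma adjusted p = 0.140). The interaction with cell type was then called in 5 of the 10, where 11.7% of all were called in this direction. In all 5, the KO minus WT difference was lower in LT-HSCs than in MPPs. In the other direction 0 were called, where 12.9% of all were. KO 1 and KO 2 had lists of 22690 and 43126 peaks and KO 4 one of 71586, against 50023 and 22878 for WT. The part of library quality in this difference was not tested. Each of the other 4 libraries left out in turn gave 0 calls.

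Genes whose regions followed those of the receptors over the 9 libraries were found by the mean percentile of each gene's regions, with absent regions at 0. For Rxra the 3 most alike of 17514 genes were Eif3l, a translation initiation gene, and the apolipoprotein genes Apoa1 and Apoc3 (Pearson r = 0.999 each, over 9 libraries). For Rxrb they were Cdc27 of the anaphase-promoting complex, Ap1m2 and the cell cycle inhibitor gene Cdkn2d (r = 1.000, 0.999 and 0.999), and for Rxrg the acetyltransferase gene Kat2b, Angel2 and Rps6kc1 (0.991, 0.990 and 0.987). All genes share list length: the median r over all genes was 0.904, 0.956 and 0.791, and the receptors' own profiles had r of 0.911, 0.961 and 0.878 with list length, so these values are a description. Genes near each other can also share regions, so the genes named need not be separate matches. Apoa1 and Apoc3 had the same r, 0.999089.

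Among genes that act with RXR, none of the 44 tested passed the gene-level test of strong peaks after adjustment, by cell type or by genotype, as over all genes. The counts that follow are at unadjusted p under 0.05, where 9.55% of all genes had more strong peaks in LT-HSCs and 14.9% more in MPPs. Of the 16 receptors that pair with RXR, 3 had more strong peaks in LT-HSCs at that p, Rarb, Thrb and Nr4a2, and 1 had more in MPPs, Nr1h2. Rarb, encoding retinoic acid receptor beta, had 15, 13 and 7 strong peaks in LT-HSC KO libraries and 8 and 8 in the LT-HSC WT ones, against 5 and 4 for MPP KO and 5 and 4 for MPP WT. The cell types did not overlap (LT-HSC mean 10.2 ± 3.56, SD, n = 5; MPP mean 4.5 ± 0.577, SD, n = 4; exact permutation p = 0.0159, adjusted p = 0.146). Nr1h2, encoding liver X receptor beta, had 6, 6 and 9 in LT-HSC KO libraries and 9 and 8 in the LT-HSC WT ones, against 11 and 11 for MPP KO and 10 and 10 for MPP WT (exact permutation p = 0.0238, adjusted p = 0.159). These did not overlap either. Of 8 coregulators, at unadjusted p, the corepressor gene Nrip1 had more in LT-HSCs and the corepressor gene Ncor1 more in MPPs. Of 10 tested retinoid handling genes, Crabp1, for a retinoic acid binding protein, and Aldh1a1, for an enzyme that makes retinoic acid, had more in LT-HSCs and 0 more in MPPs at unadjusted p under 0.05. Cyp26a1, which encodes an enzyme that degrades retinoic acid and is also on that list, had no strong peak in any library. Of 10 target genes of RXR dimers, again at unadjusted p, Pdk4 had more in LT-HSCs, and Abca1, for a cholesterol exporter, Mylip and Cpt1a had more in MPPs. The medians of the LT-HSC minus MPP difference were −0.5 for receptors, −0.5 for coregulators, 0.175 for retinoid handling and −1.48 for targets, against −0.2 over all 18599 genes. By genotype, the receptor genes Rara and Pparg and the target gene Mylip had fewer strong peaks in KO at unadjusted p under 0.05 (exact permutation adjusted p = 0.766 each), where 1.38% of all genes did. None had more in KO at that p, where 0.344% of all genes did. Medians of KO minus WT, averaged within cell type, were −0.875, −0.917, −0.0417 and −1.29 for the 4 lists, against −0.25 over all genes.

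The same count of strong peaks served as a check of the sort, where a peak near a gene is not its expression. The 8 LT-HSC marker genes had 27 to 46 strong peaks in LT-HSC KO and 43 in each LT-HSC WT library, against 36 to 38 for MPP KO and 31 to 35 for MPP WT. At unadjusted p under 0.05, where 9.55% of all genes had more in LT-HSCs and 14.9% more in MPPs, Mecom and Hlf had more in LT-HSCs and Ctnnal1 more in MPPs. The 5 MPP marker genes had 23 to 27 in LT-HSC KO and 24 to 25 in LT-HSC WT, against 31 to 32 for MPP KO and 34 to 39 for MPP WT, and Flt3 and Csf1r had more in MPPs at unadjusted p. Of 21 markers of other cells, 5 had more in MPPs and 2 more in LT-HSCs at unadjusted p under 0.05, with exact permutation adjusted p from 0.0934 to 0.195. The myeloid gene Itgam, the erythroid gene Epor and the T cell genes Cd3e, Cd4 and Cd8a were the 5, and the B cell gene Ebf1 and the erythroid gene Hbb-bt the 2. Over LT-HSC libraries and then MPP libraries, the 5 mature myeloid markers summed to 19 to 23 and 26 to 28, the 4 T cell markers to 20 to 35 and 39 to 41, and the 4 B cell markers to 20 to 29 and 22 to 25. The 4 erythroid markers summed to 23 to 32 and 30 to 31, and the 4 stromal and endothelial markers to 9 to 14 and 14. None of the 34 passed the exact permutation test after adjustment, and none had 0 strong peaks in all 9 libraries. The part of other cells in the results on the receptor genes was not tested.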

How the data were processed

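ATAC-seq peak lists of 9 libraries were used, 1 list per library, and peaks were called by the authors with MACS2 2.1.1 on mm10, per the submitters' processing notes. The authors deposited 5 numbers per peak: a display score, a fold ratio over background, the −log10 p-value, the −log10 q-value and the summit offset. Whether reads were shifted for the Tn5 cut is unstated. Read counts were not used and depth is unknown, so values have no counting intervals.

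Peaks overlapping by at least 1 bp were merged over the 9 lists, and regions within a gene or 100 kb of its ends were assigned to it. Gene ends and promoter sequences are from RefSeq (GRCm38.p6), and all 3 genes matched by symbol. Presence was tested with two-sided Fisher's exact tests (cell type) and an exact test stratified by cell type (genotype). Normal scores of ranks were tested with limma 3.58.1 in R 4.3.3. Strong peaks per gene (20665 protein-coding genes, 18599 with a strong peak) were tested by exact permutation, with smallest p of 0.00794 by cell type and 0.0167 by genotype. All p-values were adjusted (Benjamini-Hochberg) over all features tested, and adjusted p under 0.05 was a call. Of the 89 regions, 16 were held by 1 library. The tests were tested on simulated data: limma recovered 93.5% of 200 regions changed by 1.5 normal scores, among 13908, for rank by cell type. The simulation gave every library the same spread, set from how far MPP values lay from the mean of all 9 libraries. That spread therefore includes any shift between the cell types. In the data, LT-HSC percentiles at the Rxrb start spread more widely than MPP ones. Recovery of smaller differences, such as those called over the 9 libraries (0.95, −1.27 and −0.98), was not simulated. No genotype change was simulated, so recovery of one was not tested.

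Nothing in the labels says that libraries of a group came from separate pools of mice, so the tests see only the spread between libraries, which may be technical. The members, gene lists, tests and naming rule were chosen with earlier results of these data known. The rule names regions within 1 kb of a gene end, held by all 9 libraries, or held by all libraries of one cell type and none of the other (3 per gene), regions called by genotype, the 2 with the largest KO minus WT difference each way within MPPs, and 3 similar genes per receptor. The 4 Rxra regions shared by 8 libraries, the fourth Rxrb region held by MPPs alone, the Rxrb region at Brd2 and H2-DMa, the 2 Rxrb regions called by fold enrichment over 8 libraries, and the pathway and marker genes named were chosen after their values were seen. Alternatives were a merge overlap of 100 bp, −log10 q of at least 5, lists of equal length, ranks by fold enrichment, an exact permutation test of percentiles, a 10 kb flank, peaks per 10000 of the list, the replicate number as a block, and leaving out each library. Leaving out the 2 shortest lists or a further library beside LT-HSC KO 1, and fold ranks without LT-HSC KO 1, were added after seeing the data.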

Additional observations from a re-analysis of the deposited data

Results flagged for a closer look

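Among 26 sets of values checked with Dixon's test, in the 5 LT-HSC or the 4 MPP libraries, 1 had a library far from the others, and chance flags about 1 set in 20. The region 46.6 kb before Rxrg (chromosome 1, 167551457 to 167552061) stood at percentile 25.6 in LT-HSC WT 3, against 54.2 to 64.9 in the other LT-HSC libraries (gap over range 0.727). LT-HSC WT 3 has 1 of the 2 shortest lists. No genotype difference at these genes was called as differing between the cell types when all 9 libraries were used.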

How the results depend on the processing

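Merging at 100 bp changed no count. Calls of presence for MPPs went to 4 with −log10 q of at least 5 and to 1 in lists of equal length, with 1 then called for LT-HSCs, and ranged from 6 to 17 when single libraries were left out (17 without LT-HSC KO 4, 10 without MPP KO 1). Ranks called by cell type went to 0 for LT-HSCs and 0 for MPPs by fold enrichment and in the exact permutation test, whose smallest adjusted p over 13908 regions was 0.0653. They ranged from 0 to 2 for LT-HSCs and from 0 to 3 for MPPs with single libraries left out. Within LT-HSCs, calls for lower rank in KO ranged from 0 to 5. The MPP genotype difference at the Rxrb start, near 0, changed sign by fold enrichment (0.0696) and when MPP KO 2 or MPP WT 2 was left out (single libraries left out, range −0.0806 to 0.0402). The difference in strong peaks by cell type changed sign by fold enrichment for Rxrb (0.95) and Rxrg (−0.45), and as peaks per 10000 of the list for Rxra (−1.09) and Rxrb (0.17). The cause was not tested.

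Libraries with the same number showed little common deviation: the correlation of deviations was −0.10 for both MPP pairs and at most 0.08 in size for the other same-numbered pairs. With 2 libraries in each MPP group, both MPP pairs must give the same value, so they count as 1. With the replicate block, 1 region was called higher in LT-HSCs and 3 in MPPs by cell type, and 0 by genotype over all libraries or within MPPs. In the first of these fits the block was genotype and number together, and LT-HSC KO 4, LT-HSC WT 3 and MPP WT 1 then had no partner. With the 2 shortest lists left out, 1 and 3 of 23 regions were called by cell type.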
